A study of Mus musculus with 2 samples.

Results

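R06625 is 1 of the 34099 rows of a single-cell count matrix of mouse dorsal epidermis, and control cells that carried it were compared with control cells that did not. Rows are named by the letter R and their place in the matrix. Cells were kept at 500 or more detected rows and 5000 or more UMIs, a UMI being a molecular tag that counts 1 captured RNA molecule. Of the 6914 control cells kept, 296 held 10 or more UMIs of R06625 and 1795 held none. The other 4823 held 1 to 9 UMIs. Both sets were chosen by the level of R06625 itself, so that row describes them and tests nothing. The files used here carry row numbers in place of gene names, so the cells are called by their level of R06625, and the markers of keratinocyte types could not be checked.

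The epidermis is a layered epithelium in which basal keratinocytes divide, leave the basement membrane and turn on the genes of the barrier as they move outward. Genes of the barrier often lie in clusters of related neighbours on a chromosome, and hair follicles and immune cells are part of the same tissue. SPT6, the product of Supt6, is a histone chaperone that acts on elongating RNA polymerase II.

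The series held 1 control library and 1 Supt6-KO library, taken from dorsal skin. The control was labelled as wild-type and received corn oil, while the study's methods describe control mice with floxed Supt6 alleles, so its genotype is not settled by the sources. The Supt6-KO library was labelled as a Supt6 knockdown induced by tamoxifen. By the study's methods it had the genotype K14-CreERT; Supt6 fl/fl and was sampled 5 days after the last tamoxifen injection, with Cre activity limited to cells that use the K14 promoter. The age of the animals behind these libraries is not given in the sources used here. Genotype, injected compound, mouse and library changed together and cannot be told apart. Each condition was sampled once by the study's description, so there is no replicate spread, no p-value is given, and every interval is an exact 95% interval that covers counting error only.

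The control library held 9085 barcodes with 104386982 UMIs and the Supt6-KO library 12971 barcodes with 116573347 UMIs. Of these, 6914 (76.1%) and 8540 (65.8%) were kept, with a median depth of 11988 and 11192 UMIs. The libraries shared 23 barcode sequences, and 0 of these had 10 or more UMIs of R06625. The level of Supt6 itself was not analysed here, because its row is not known.

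R06625 ranked 31st among all rows of the control library at 3121 counts per 1000000 UMIs (CPM; 95% interval 3110.1 to 3132). In the Supt6-KO library it stood at 9.60 CPM (9.03 to 10.2), which is 325-fold lower (306 to 346). Its RNA sat in few cells: 96.8% of its control UMIs lay in the 296 cells with 10 or more. These were 4.28% of control cells (3.82 to 4.79), and their counts reached from 10 to 5266 with a median of 492. Of the 296, 39 cells had 10 to 29 UMIs, 41 had 30 to 99, 38 had at least 100 but under 300, and 178 had 300 or more. In the Supt6-KO library, 5 of 8540 cells (0.0585%; 0.0190 to 0.137) reached 10 UMIs, and 8381 (98.1%) had none.

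**Figure D1:**
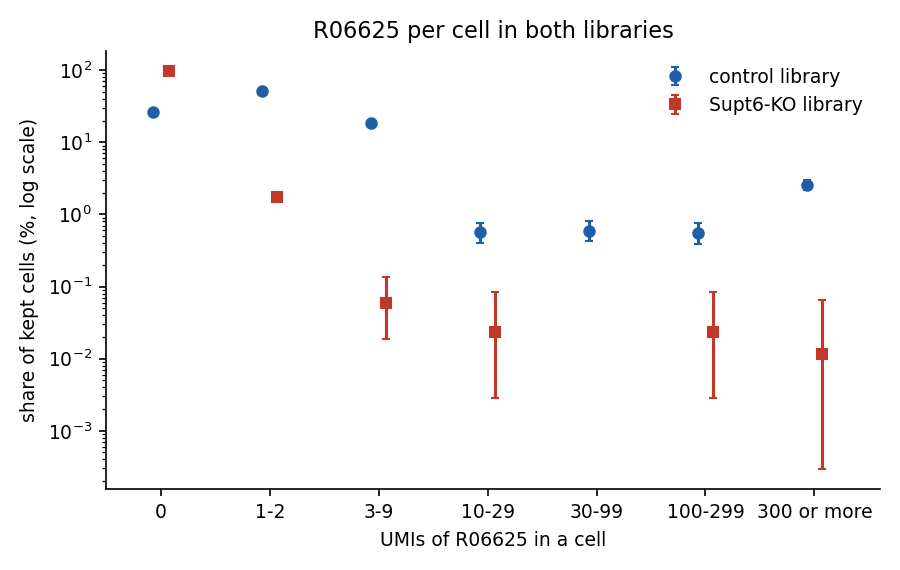
Share of kept cells (percent, log scale) against the UMIs of R06625 in a cell, for the control (circles) and the Supt6-KO library (squares), with exact 95% binomial intervals. Most control cells lie at 0 to 9 UMIs, 0.564%, 0.593% and 0.550% lie in the next 3 classes and 2.57% lie in the last, open class of 300 or more, while 98.1% of Supt6-KO cells lie at 0 and none lies at 30 to 99.

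A low count of R06625 was found across the control library. In the 6 clusters of control cells that held no cell with 10 or more UMIs, 1532 of 2191 cells (69.9%; 68.0 to 71.8) still had at least 1 UMI at a median depth of 10814, and the summed level was 110.1 CPM (106 to 114). Those clusters ran from 86.4 to 137 CPM, and no cell in them passed 8 UMIs. Over all control cells with fewer than 10 UMIs the level was 107 CPM. Whether a UMI of R06625 in these clusters was background or low expression was not tested. The 4823 cells with 1 to 9 UMIs (69.8% of control cells) cannot each be told apart from the cells of these clusters by count alone. Whether a cell had 0 or 1 to 9 UMIs moved with depth: the share at 0 was 39.1% in the shallowest of 4 equal depth classes of the cells below 10 UMIs and 13.4% in the deepest. Cells with 1 to 9 UMIs were close to cells with 0 in the other rows, with 58 rows (1.00%) 2-fold higher and 10 (0.173%) lower among 5785 tested.

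The sets differed in depth and in the spread of their RNA over rows. Cells with R06625 had a median of 19214 UMIs (quartiles 15249 and 26104), against 10196 (7873 and 13222) in cells without it. They nevertheless had fewer detected rows, with medians of 2628 and 3059. After thinning every cell to 5000 UMIs, the medians were 1354 rows (891 to 1688 between quartiles) with R06625 and 2013 (1925 to 2100) without it. The 10 highest rows took 22.3% of the UMIs with R06625 and 8.06% without it. A block of 13 adjacent rows, the run whose lowest row stood highest in the control library, took 1.54% and 2.85%. High doublet scores, meaning the top 8% of Scrublet scores in the library, were found in 17.2% of the cells with R06625 and 7.41% of those without. The automatic threshold of Scrublet had not worked, so a high score here and below is not a doublet call. The part of depth and doublets in the differences below was not tested beyond the alternatives given with them.

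At the edge of the set, the 10 cells with 10 to 12 UMIs had 295 CPM of R06625 and the 26 cells with 8 or 9 had 258 CPM. The cells were grouped by these counts, so the close levels tell nothing about how sharp the edge is. Both groups were deep cells, with medians of 38014 and 34356 UMIs, and 40.0% and 30.8% of them had high doublet scores.

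Across the other rows, 6036 reached 20 CPM in at least one of the sets. By the size rule of a 2-fold difference, 667 of them (11.1%) were higher in cells with R06625 and 3215 (53.3%) were higher in cells without it. The remaining 2154 lay within 2-fold, and the median log2 ratio of all 6036 was -1.07 on the log2(CPM + 1) scale. Extreme differences lay on the side of the cells with R06625, where 148 rows were 16-fold higher, compared with 18 rows that were 16-fold higher without it. Of the 667 rows, 366 had 20 CPM or more in both sets, and of the 3215 rows, 1431 did. The other members entered through the set in which they were high, so the filter itself favoured a difference in them.

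**Figure D2:**
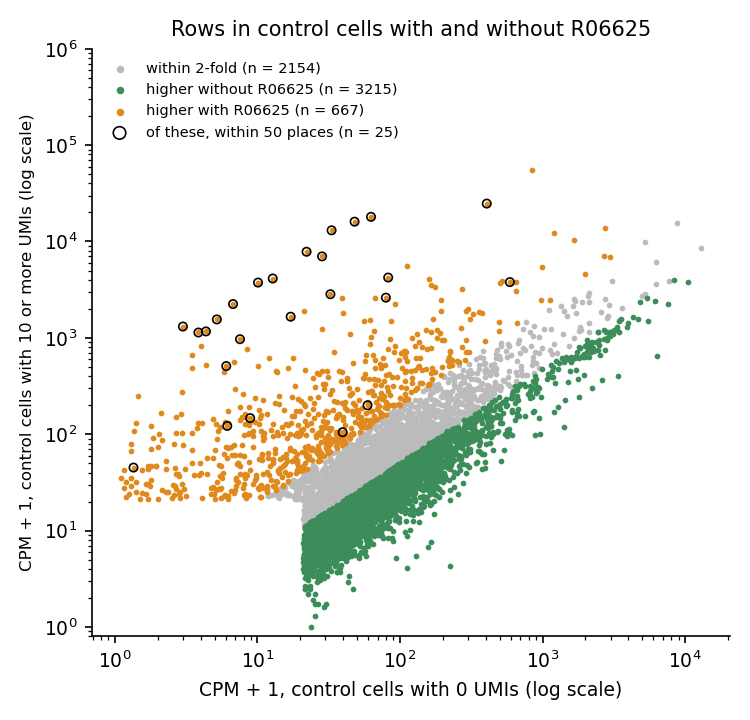
Each of 6036 rows by its CPM + 1 in control cells with 0 UMIs of R06625 (x, log scale) and with 10 or more (y, log scale). The 667 rows higher with R06625 spread far above the body of rows, and the 25 of them within 50 places of R06625 (open circles) include its upper left edge, while the 3215 rows higher without it form a dense lower band.

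The balance of both lists rested on the scaling. Under TMM factors, which centre the bulk of the rows, 1455 rows were higher with R06625 and 960 were higher without it, and the share of calls on the side of R06625 went from 17.2% to 60.2%. The median log2 ratio moved from -1.07 to 0.05. All 667 rows stayed among the 1455, and the 960 were all among the 3215. A CPM ratio is a share of a cell set's RNA, so a higher share in a few rows lowers the share of the others.

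Together the 667 rows took 43.5% of the UMIs in cells with R06625, 5.23% in cells without it and 7.48% in cells with 1 to 9 UMIs. The 3215 rows took 18.2%, 55.6% and 51.5%. Within the 296 cells both shares moved along with R06625. The 667 rows took 22.0% of UMIs at 10 to 29 UMIs of R06625, 31.1% at 30 to 99, 41.3% at 100 to under 300 and 53.8% at 300 or more. The 3215 rows took 33.5%, 25.2%, 18.0% and 11.7% in the same classes. The number of rows found per 5000 UMIs went from a median of 1776 to 1711, 1571 and 1042. Since the lists were drawn from these cells, the trend is a description of them.

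**Figure D3:**
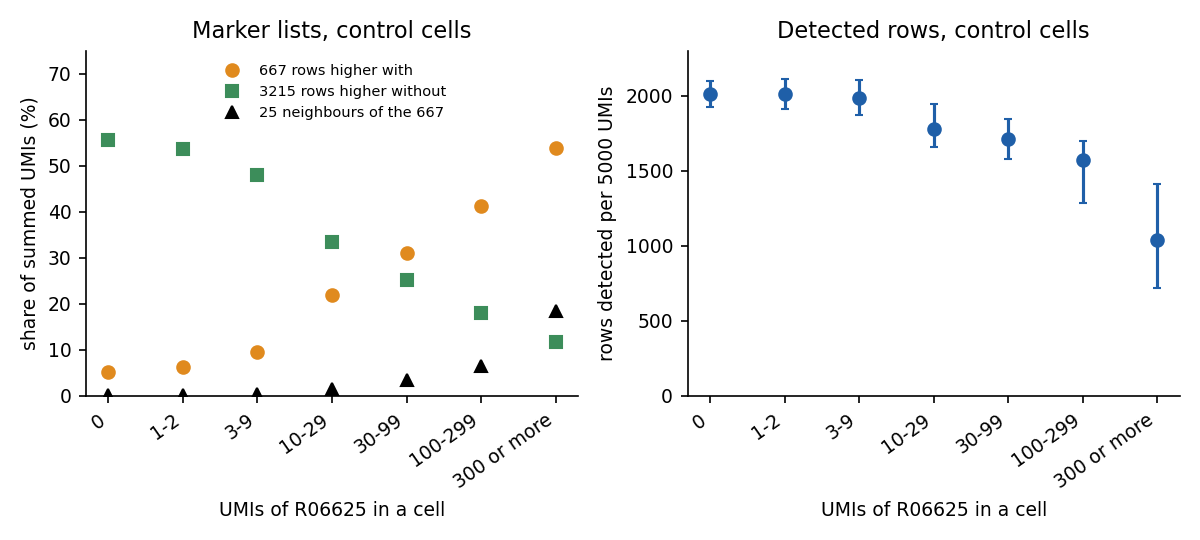
Left, share of summed UMIs (percent) taken by the 667 rows higher with R06625 (circles), the 3215 rows higher without it (squares) and the 25 neighbours among the 667 (triangles), by UMIs of R06625 in control cells. Right, median rows detected per 5000 UMIs with quartiles as bars. The first list goes from 5.23% to 53.8% of UMIs and the detected rows from 2013 to 1042.

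Measured against the 4823 cells with 1 to 9 UMIs in place of the cells with 0, 568 rows (9.67%) were higher and 2970 (50.6%) lower in cells with R06625, and 560 of the 667 rows were among the 568.

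R06612, 13 places before R06625, had the largest ratio among rows found in at least 10% of the cells with R06625. It stood at 1310.4 CPM in those cells (1283 to 1338) and 2.00 CPM in cells without R06625 (1.43 to 2.72), a 656-fold difference (481 to 919). It was found in 36.8% of the former and 2.23% of the latter. In the Supt6-KO library it had 1.65 CPM, against 90.7 CPM in all control cells and 2.07 CPM in control cells with fewer than 10 UMIs of R06625. The log2 ratio of Supt6-KO over control was thus -5.11 against all control cells and -0.21 against the cells below 10 UMIs.

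On the other side, R23059 had 4.17 CPM with R06625 (2.77 to 6.03) and 93.3 CPM without it (89.1 to 97.6), which is 22.4-fold higher without (15.4 to 33.8). It was found in only 9.12% of the cells with R06625 and 17.7% of those without. R19038 had 1.94 CPM with R06625 and 42.5 CPM without it, which is 22.0-fold higher without (12.8 to 41.4). R19038 was found in 3.72% and 10.4% of these cells. Its log2 ratio depended on the cells, at -3.89 here and -2.45 among cells with 10000 or more UMIs. Both rows were lower, and not higher, in the Supt6-KO library. R23059 went from 67.1 CPM in control to 0.533 CPM in Supt6-KO, 126-fold lower (97.1 to 166). R19038 went from 25.3 to 7.89 CPM, 3.21-fold lower (2.97 to 3.47).

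Many of the strongest rows lay beside R06625 in the row order. Of 35 other rows within 50 places that reached 20 CPM in either control set, 25 were higher with R06625 and 6 were higher without it, beside 11.1% and 53.3% of all rows, and the other 4 lay within 2-fold. The 25 lay from 25 places before to 41 places after it, 22 of them were 16-fold higher or more, and they ranged from 44.1 to 24732 CPM in cells with R06625. They took 11.9% of the UMIs in those cells and 0.155% in cells without the row. A run of 21 rows that were 8-fold higher or more, with gaps of at most 5 places, reached from 25 places before R06625 to the row directly before it. The next longest such run anywhere in the matrix had 5 rows, and the longest among rows 8-fold higher without R06625 had 3. The order of rows in such matrices usually follows the annotation, but the map from rows to chromosomes was not used here, and reads shared by similar genes could not be told apart.

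The row directly before R06625 was found in all 296 cells, at 24732 CPM compared with 405 CPM in cells without R06625. In control cells below 10 UMIs it stood at 743 CPM, where R06625 stood at 107 CPM, and in the Supt6-KO library at 837 CPM, where R06625 stood at 9.60 CPM. How much of the 743 CPM was background was not tested. Its ratio to R06625 was 0.554 in cells with R06625 and 6.95 in control cells below 10 UMIs. Since the level of R06625 chose these cells, the ratio describes them and tests nothing.

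**Figure D4:**
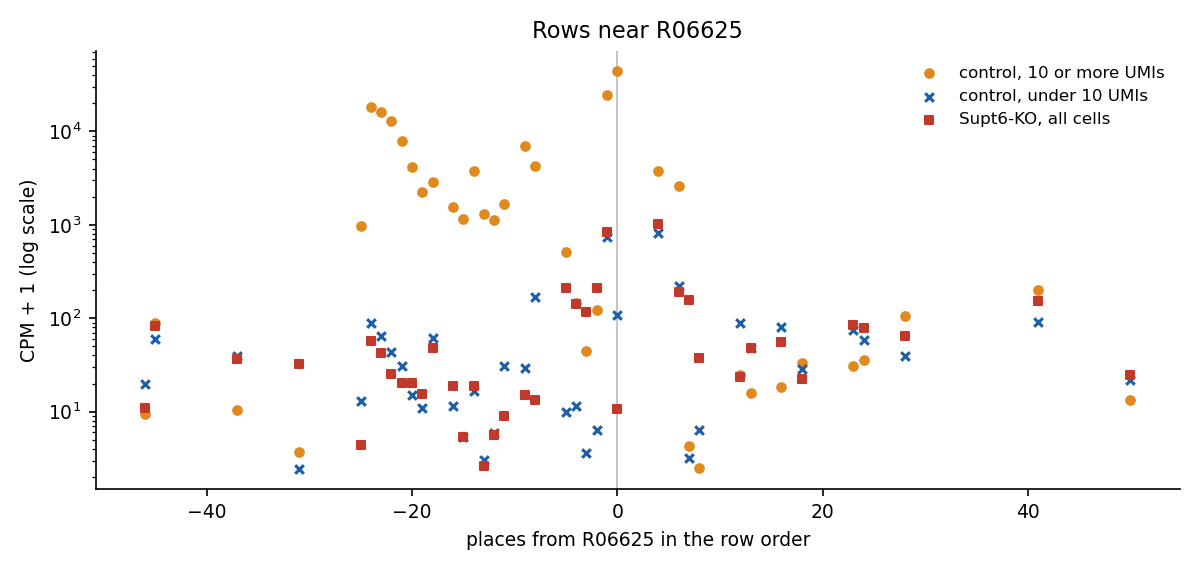
CPM + 1 (log scale) of R06625 and the rows within 50 places of it, by place in the row order, in control cells with 10 or more UMIs (circles), control cells with fewer than 10 (crosses) and all Supt6-KO cells (squares). Most rows at 25 to 8 places before R06625 have similar low levels in the crosses and squares, while rows at 5 to 2 places before it are higher in Supt6-KO, at 117 to 208 CPM.

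Outside this neighbourhood, the highest of the 667 rows exceeded R06625 itself. It stood at 54577 CPM with R06625, 1816 CPM in cells with 1 to 9 UMIs and 845 CPM in cells without, a 64.6-fold difference from the latter, and it was found in 93.7% of the cells without. In the Supt6-KO library it had 609 CPM, against 5193 CPM in all control cells and 1605 CPM in those below 10 UMIs (log2 ratios -3.09 and -1.40). The next highest row had 13728 and 2727 CPM with and without R06625, and its level in Supt6-KO (3963 CPM) was near that in control cells below 10 UMIs (3769 CPM). The levels in Supt6-KO of the next 4 rows in order differed from those in control cells below 10 UMIs by log2 ratios of -0.26, 0.55, -0.60 and -0.01. The seventh highest had 5546 CPM with R06625 and 111 CPM without, and its 18.4 CPM in Supt6-KO stood against 248 CPM in control cells below 10 UMIs (log2 ratio -3.68). The last 3 of the 10 highest had log2 ratios of -1.28, -0.41 and -0.25, so these 10 rows did not share one direction. They were chosen by level after their values were seen.

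Clustering the control cells on 2000 variable rows, with R06625 left out and its neighbours kept, gave 14 clusters, and 261 of the 296 cells (88.2%; 83.9 to 91.6) fell in 2 of them. Cluster 9 held 290 cells, 173 of which (59.7%) had 10 or more UMIs. Cluster 11 held 88 cells, and all 88 had 10 or more. Cluster 6 held 22 such cells, no other cluster held more than 6, and 6 clusters held none. No cluster is named, since its markers cannot be read.

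The cells of these clusters differed. In cluster 11 they had a median of 2000.5 UMIs of R06625 and a summed level of 120152 CPM, and the 25 neighbouring rows took another 33.9% of all their UMIs. The 173 cells of cluster 9 had a median of 326 UMIs, 24726 CPM and 5.20% in the neighbours. The 642 marker rows outside the neighbourhood took 31.4% of all UMIs in cluster 11 and 34.0% in cluster 9. These totals include R06625 and its neighbours, which took more in cluster 11, so the outside rows made up a larger part of the remaining UMIs there. Per 5000 UMIs, cells of cluster 11 showed a median of 714 rows and those of cluster 9 1568. High doublet scores were less frequent in cluster 11 (6.82%) than in cluster 9 (19.7%). Of R06612, 90.1% of the control UMIs lay in cluster 11, while 57.4% of those of R19038 lay in the 90 cells of cluster 10, none of which had 10 UMIs of R06625. The 117 cells of cluster 9 that had fewer than 10 UMIs of R06625 had 25.8% of their UMIs in the 642 outside rows, at 131 CPM of R06625.

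Among the cells with 10 or more UMIs, 4306 rows were tested between clusters 11 and 9, of which 226 were 2-fold higher in cluster 11 and 3305 in cluster 9. Of the 667 rows, 129 were 2-fold higher in the cells of cluster 11 than in those of cluster 9, 311 were higher in cluster 9 and 227 lay within 2-fold. Of the 25 neighbours, 16 were higher in cluster 11 and 6 in cluster 9, beside 226 and 3305 of the 4306 rows. Against the cells without R06625, 389 of the 667 rows were called in cluster 11, 627 in cluster 9 and 351 in both. The share of all rows called in these comparisons is not given and the cells of both clusters helped choose the list, so these counts only describe it. When cells with and without R06625 were compared inside clusters 5, 6 and 9, which held at least 5 of each, and averaged with equal weight, 254 rows were higher with R06625 and 301 higher without. Of these, 194 and 184 were on the lists above. Cluster 9 entered that average with only 7 cells without the row, and clusters 5 and 6 with 6 and 22 cells that had it.

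The same rows were then read in the Supt6-KO library, where R06625 was nearly lost. Over all rows, 5925 were tested between the libraries, 1023 (17.3%) were lower in Supt6-KO and 315 (5.32%) were higher, with a median log2 ratio of -0.33. Under TMM factors 12.6% were lower and 8.04% higher, the higher rows went from 23.5% to 39.0% of the calls, and the median was -0.12. Of the 667 rows higher with R06625, 473 were tested and 194 reached 20 CPM in neither library. Of those tested, 229 were lower in Supt6-KO (48.4%), 28 were higher (5.92%) and 216 lay within 2-fold. With rows tested or not as the denominator, the share lower was 34.3% of the 667 rows and, under TMM, 20.6% of the 1455 rows then higher with R06625 (300 rows), while 4.20% and 4.05% (59 rows) were higher. Of the 3215 rows higher without R06625, 3049 were tested, of which 450 were lower (14.8%) and 114 were higher (3.74%). With rows tested or not as the denominator, 14.0% of the 3215 rows were lower and 3.55% higher. Under TMM, 165 of the 960 rows then higher without R06625 were lower (17.2%) and 64 higher (6.67%), beside 12.6% and 8.04% of all rows. The share lower was thus below that of all rows by CPM and above it under TMM. The control cells of this contrast include the 296 cells that chose the list, so rows rich in those cells raise the control level by construction.

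The contrast was repeated without the 296 cells. The 6618 control cells that remain include the 1795 cells with 0 UMIs, whose low level put the rows on the list, so part of that choice stays in the contrast. Compared with the 6618 control cells below 10 UMIs, 427 of the 667 rows were tested. Of these, 134 were lower in Supt6-KO (31.4%) and 36 higher (8.43%), where 17.1% and 5.09% of all 5935 rows tested were. All 134 were among the 229. By summed UMIs the list took 9.47% in all control cells, 6.99% in those below 10 UMIs and 5.82% in Supt6-KO, and the 3215 rows took 50.1%, 52.4% and 53.6%. The median log2 ratio of the tested rows of the list was -0.95 against all control cells and -0.61 here, beside -0.33 and -0.35 for all tested rows. Between cells with 0 UMIs in both libraries, 396 were tested, of which 68 were lower (17.2%) and 56 higher (14.1%), where the background was 17.9% and 4.91%, and the median of the tested rows of the list was -0.35 beside -0.38. The other 240 and 271 rows of the list were below 20 CPM on both sides of these contrasts. The 1795 control cells of this last contrast are those whose low level put the rows on the list, so the list is set low in them by construction. The contrasts share nearly all Supt6-KO cells and draw on overlapping control cells, and are set side by side as values. Of the 3215 rows, 3101 were tested against control cells below 10 UMIs, of which 533 were lower (17.2%) and 101 higher (3.26%). Between cells with 0 UMIs all 3215 were tested, of which 703 were lower (21.9%) and 76 higher (2.36%), in control cells that were high in them by choice.

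**Figure D5:**
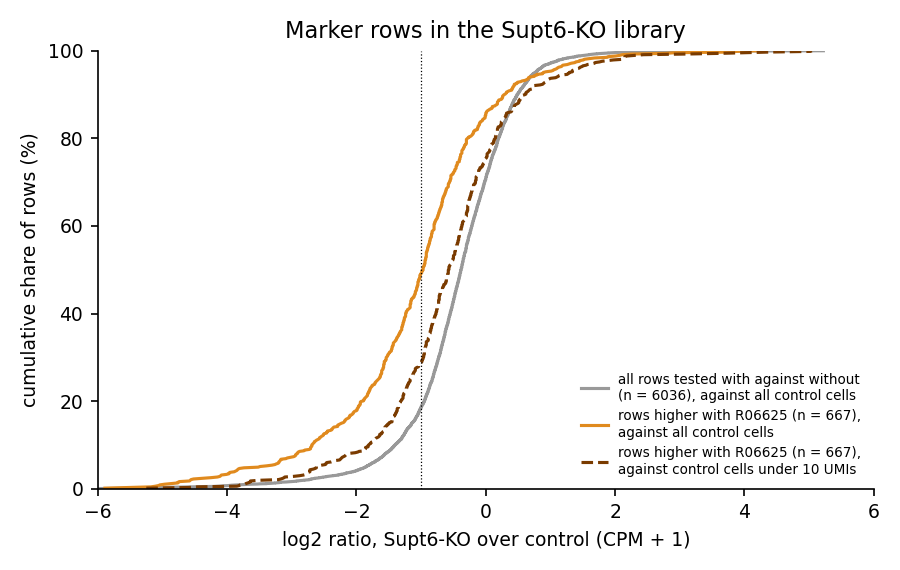
Cumulative share of rows (percent) by log2 ratio of Supt6-KO over control on CPM + 1, for all 6036 rows (grey), the 667 rows higher with R06625 against all control cells (solid) and the same rows against control cells below 10 UMIs (dashed). Over all 667 rows, tested or not, the median is at -0.97 with all control cells and at -0.57 without the 296 cells, and the dotted line marks a 2-fold lower level.

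The rows with large ratios are given in the same way, beside 17.3% of all rows lower and 5.32% higher against all control cells and 17.1% and 5.09% against those below 10 UMIs. Of the 148 rows that were 16-fold higher with R06625, 74 were tested against all control cells, with 57 lower in Supt6-KO (77.0%) and 7 higher (9.46%). Against control cells below 10 UMIs 45 were tested, with 15 lower (33.3%) and 11 higher (24.4%). All 67 rows at 1000 CPM or more in cells with R06625 were tested against all control cells, with 40 lower (59.7%) and 1 higher (1.49%). Against control cells below 10 UMIs 60 of them were tested, with 17 lower (28.3%) and 2 higher (3.33%). Of the 129 rows higher in cluster 11, 48 of 72 tested were lower and 1 higher, and then 10 of 49 were lower and 1 higher. Of the 311 rows higher in cluster 9, 113 of 228 tested were lower and 20 higher, and then 90 of 215 were lower and 22 higher.

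The neighbours of R06625 divided. All 25 were tested against all control cells, where 17.3% of all rows were lower and 5.32% higher. Of them 18 were lower in Supt6-KO (72.0%), 4 were higher and 3 lay within 2-fold. Against control cells below 10 UMIs 17 were tested, with 3 lower (17.6%, beside 17.1% of all rows), and the same 4 were higher (23.5%, beside 5.09%). How much of the level of these neighbours in control cells below 10 UMIs was background was not tested. One of the rows still lower lies 8 places before R06625, with 168 CPM in control cells below 10 UMIs and 12.4 CPM in Supt6-KO. The 4 higher rows are adjacent, at 5 to 2 places before R06625. They had 44.1 to 509 CPM in control cells with R06625, 5.44 to 42.9 CPM in all control cells and 117 to 208 CPM in Supt6-KO. A further 3 rows within 50 places, not among the markers, were also higher in Supt6-KO.

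Cells rich in the other marker rows were sought in the Supt6-KO library by the share of UMIs in the 642 marker rows that lie outside the neighbourhood. The score leaves out R06625 and the rows near it, but its rows were chosen for being higher in these 296 control cells than in these 1795, so the gap between these 2 sets is fixed by that choice. Its median was 34.7% (quartiles 28.4 and 42.7) in control cells with R06625, 3.13% in control cells without it and 3.55% in Supt6-KO cells. The lowest decile of the cells with R06625 lay at 22.1%. In the Supt6-KO library 106 cells (1.24%; 1.02 to 1.5) reached that level, and 42 (0.492%) reached the lower quartile of 28.4%. Of the 106, 96 had 0 UMIs of R06625 and 4 had 10 or more. In control, 266 cells with R06625 and 176 cells with fewer than 10 UMIs reached 22.1%.

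The 102 Supt6-KO cells at or above 22.1% that had fewer than 10 UMIs held 12.2 CPM of R06625 (7.0 to 19.9), compared with 146 CPM (133 to 159) in the 176 control cells within the same limits and 52434 CPM in the 266 control cells with R06625. The score's rows took 27.8%, 29.3% and 35.1% of their UMIs. Over all cells below 10 UMIs the level was 1.70 CPM in Supt6-KO and 107 CPM in control. Whether these low levels are background or expression was not tested, so the 12.2 and 146 CPM are not read as a comparison of expression. The 4 adjacent rows that were higher in Supt6-KO summed to 17265 CPM in the 102 cells, to 403 CPM in the 176 and to 968 CPM in the 266. At least 10 UMIs of these 4 rows were found in 83 of the 102 cells (81.4%), 25 of the 176 (14.2%) and 83 of the 266 (31.2%), and the single highest cell gave 5.17%, 23.1% and 7.74% of the sum in turn. The row directly before R06625 had 13238, 10769 and 28807 CPM in the same 3 groups. The 4 rows were picked because they were higher in this library, and the 102 cells held 31.3% of all their Supt6-KO UMIs, so most of it lay in other cells. Whether the 102 cells and the control cells are of the same cell type was not tested.

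The 5 kept Supt6-KO cells with 10 or more UMIs had 374, 253, 177, 28 and 13 UMIs of R06625. The outside marker rows took 40.7%, 39.2%, 38.2%, 39.3% and 21.0% of their UMIs; the first 4 values lie between the quartiles of the control cells with the row (28.4% and 42.7%), and the last lies below their lowest decile (22.1%). These cells were shallow, with a median of 5542 UMIs, and none of the 5012 Supt6-KO cells with 10000 or more UMIs reached 10 UMIs of R06625, an exact upper limit of 0.0736%, where 278 of 4602 control cells did (6.04%; 5.37 to 6.77).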

How the data were processed

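Dorsal skin was taken from 1 control and 1 Supt6-KO sample, and epidermal cells were captured with 10x Chromium. The authors aligned reads to GRCm39 with STAR inside Cell Ranger 7.1.0 and deposited filtered matrices of UMI counts per row and barcode. No further normalization had been applied to the deposited counts, and 0 other columns were left out.

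Counts were read with Python 3.11.15 and scipy 1.17.1. UMIs were summed per set of cells and scaled to 1000000 (CPM). A row was tested at 20 CPM or more in either set and called at 2-fold or more, and ratios are shown with a pseudocount of 1. With 1 library per group no test was run. Intervals are exact (Clopper-Pearson or Poisson, 95%). Cells were clustered with Seurat 5.3.0 (2000 variable rows, 30 components, resolution 0.8) without R06625. Scrublet in scanpy 1.11.5 marked 1 control and 0 Supt6-KO cells by its own threshold and so had not worked. Doublets were therefore kept, and the 8% of cells with the highest scores were left out as an alternative. TMM factors came from edgeR 4.0.16. The scripts were tested on simulated data.

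Rows are named by this rule: R06625, then the row of highest ratio and the 2 of lowest ratio, each found in at least 10% of cells in its higher set. Members and lists were chosen with earlier results of these data known. Alternatives were cell filters, other limits for the sets, scalings, thresholds, doublets and clusters. Those with 1 to 9 UMIs as comparison, control cells below 10 UMIs, totals without the neighbourhood and no UMI minimum were added after seeing the data.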

Additional observations from a re-analysis of the deposited data

How the results depend on the processing

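No paired analysis was possible because each condition was sequenced as 1 library, which also leaves no replicate to omit. The 667 rows higher with R06625 and the 3215 higher without it became 1455 and 960 under TMM factors, 395 and 982 at 100 CPM, 410 and 1150 at 4-fold, and 254 and 301 within clusters. At 5 CPM the second list held 5291 rows. Of rows higher with R06625, the number lower in Supt6-KO (229) became 300 under TMM, 93 at 100 CPM, 421 at 1.5-fold, 75 at 4-fold, 134 against control cells below 10 UMIs and 68 between cells with 0 UMIs. The number higher in Supt6-KO (28) became 59 under TMM, 47 at 5 CPM, 16 at 100 CPM, 48 at 1.5-fold, 6 at 4-fold and 56 between cells with 0 UMIs. Of rows higher without R06625, those lower in Supt6-KO (450) became 165 under TMM, 714 at 5 CPM, 171 at 100 CPM, 1306 at 1.5-fold, 62 at 4-fold and 703 between cells with 0 UMIs. Those higher in Supt6-KO (114) became 64 under TMM, 266 at 5 CPM, 32 at 100 CPM, 371 at 1.5-fold and 6 at 4-fold. A changed threshold changes how many rows can be called, and the cause of the other shifts was not tested.

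The share of control cells with 10 or more UMIs (4.28%) was 3.77% at 2000 UMIs, 3.58% with no UMI minimum, 6.04% at 10000 UMIs and 3.56% after thinning to 5000 UMIs, while that with 0 UMIs (26.0%) was 29.9%, 31.7%, 20.4% and 54.1%. In Supt6-KO the share with 10 or more was 0 at 10000 UMIs, and the share at 0 was 99.2% after thinning. At resolution 0.4 the leading pair of clusters held 94.3% of the cells with R06625. Leaving out cells with high doublet scores, other limits on R06625 for the sets and totals without R06625 kept every count of rows within 1.5 times. The ratios of the 3 other named rows kept their sign in the alternatives computed for them, but not their size. The log2 ratio with over without of R19038 (-3.89) was -2.45 at 10000 UMIs, -3.02 against cells with 1 to 9 UMIs, -3.08 under TMM, -4.69 without high doublet scores and -4.97 as a mean over cells. That of R23059 (-4.19) was -3.30 under TMM and -3.60 with thinned sets, and that of R06612 (8.77) was 9.56 under TMM. The Supt6-KO over control ratio of R06612 (-5.11) was -5.81 at 10000 UMIs and -4.62 as a mean over cells, and that of R19038 (-1.57) was -1.01 and -2.02 in the same order, -1.39 under TMM and -1.42 without high doublet scores. Depth limits what a 0 means. At the summed level of R06625 in control cells below 10 UMIs, a cell of their median depth is expected to give 1.26 UMIs. With 1 library per group, variation between mice is unmeasured.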
